A study of Mus musculus with 4 samples.

Results

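The 79 genes described here were solute carrier genes that gave a clear signal in mouse T cells cultured toward the Th1 or the Th17 fate. They were chosen by symbol and by signal. A gene belonged to the set when its symbol began with Slc and a digit and when its probe set, the brightest for that gene by the mean of the 4 arrays, reached a signal of 300 on at least 1 array. Mitochondrial carriers (Slc25), zinc carriers (Slc30, Slc39) and 11 well-studied glucose, lactate and amino acid carriers were set aside by the same rule. Of 347 Slc symbols measured, 268 were eligible and 189 of these stayed under 300 on every array. Among all 18193 genes measured, 8227 reached that signal on at least 1 array.

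Splenic CD4 T cells with the CD44low phenotype of naive cells were cultured for 6 days and then sorted into CD30low and CD30high cells. Th1 cultures contained IL-2 at 30 U/ml, IL-12 at 100 U/ml and anti-IL-4 at 1 µg/ml. Th17 cultures contained IL-6, IL-1β and IL-23 at 10 ng/ml each and anti-IL-4 and anti-IFN-γ at 10 µg/ml each. Each of the 4 populations was measured on 1 Affymetrix array, so no difference below has a replicate check and none was tested. By the methods, cells with a transgenic receptor for ovalbumin (DO11.10 or OTII) were stimulated with peptide beside irradiated splenocytes that lacked T cells. The methods give an age of 6 to 12 weeks for the mice of the study. Which transgenic line, strain and sex gave these arrays was not given in the sources used here. The labels name CD62Llow cells as the start of both CD30low samples and CD62Lhi cells as the start of both CD30high samples, whereas the methods describe CD62Lhigh cells throughout. If the labels hold, CD30 level and starting population cannot be told apart.

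Solute carriers are membrane proteins that move nutrients, ions, metabolites and nucleotide sugars across the plasma membrane or the membranes of organelles, either down a gradient or coupled to another ion. Activated T cells are known to raise uptake of glucose, amino acids and iron as they grow, and carriers of the Golgi and lysosome supply glycosylation and return digested material to the cytosol. CD30, encoded by Tnfrsf8, is a receptor of the TNF receptor superfamily that appears on activated T cells.

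The arrays had been scaled to similar overall brightness, with trimmed means from 496.6 to 497.0. Of 6 T cell markers, 5 were named on the table, and each was at 100 or more on all 4 arrays. Tbx21, the master regulator of Th1 cells, gave 2189.8 and 2352 in Th1 cells and 281 and 243 in Th17 cells, the CD30low array named first here and below, and Il17a gave 37.7, 49.4, 1398 and 14443 in the same order. Tnfrsf8 itself was dim, at 13.3, 51.1, 34.9 and 132. Some transcripts listed as markers of other cells differed with the sort, and which cells they came from was not tested. The summed signal of 6 neutrophil markers was 37.7, 206, 8870 and 2231, and 4 of the 6 were lower past the fold rule in CD30high Th17 cells. In Th1 cells none of the 6 reached 100. The summed signal of 6 fibroblast markers was 248, 287, 1030 and 7759, carried in Th17 cells by Dcn and Lum. All 3 collagen genes and Pdgfra were under 100 on every array. None of the 6 macrophage and monocyte markers reached 300, with sums of 339, 488, 440 and 620. The 5 natural killer and CD8 markers summed to 9345, 7062, 1013 and 743, higher in Th1 cells of either sort. In Th1 cells Klrd1 (6199 and 4360) and Klrk1 (2359 and 2108) carried most of the sum. Cd8b1 was at 703, 541, 390 and 350, and Ncr1 and Cd8a were under 100 on every array. B cell, erythroid and dendritic cell markers stayed under 300. The Y-linked Eif2s3y was at 1784 and 1640 in Th1 cells and at 1.41 and 9.39 in Th17 cells, whereas Xist was at 14620.4, 16222, 22350.0 and 22613, so the lineages also differed in sex-linked transcripts. In bulk RNA, fewer cells of a type and less RNA per cell cannot be told apart, and the part of these transcripts in the values below was not tested.

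To ask which transporters differed with CD30, CD30high cells were compared with CD30low cells within each lineage. A gene was counted as past the fold rule when the ratio was at least 2-fold and the brighter signal at least 300, with signals under 100 set to 100. In Th17 cells 6 of 79 genes were higher past the rule and none was lower, and in Th1 cells none was higher and 1 was lower. Among the 8227 genes at the same signal, 3.73% were higher and 3.46% lower with CD30 in Th17 cells, and 0.754% were higher and 0.462% lower in Th1 cells. The median log2 ratio of the 79 genes was 0.0058 in Th1 cells and -0.033 in Th17 cells, beside -0.021 and 0.0054 over all 8227 genes. Most of the transporters, like most genes, lay close to equality. With CD30, 73 of 79 differed by less than 1.5-fold in Th1 cells, beside 7567 of all 8227 genes. In Th17 cells 62 of 79 did, beside 6662 of all. The Th1 count includes Slc2a6 and Slc35d3, whose Th1 signals were all set to 100.

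The 6 genes higher in CD30high Th17 cells were Slc15a3, Slc35d3, Slc4a11, Slc41a2, Slc35d1 and Slc66a2, of which Slc35d1 and Slc35d3 belong to the same family. Slc15a3, a proton-coupled carrier of histidine and small peptides in lysosomes, was at 77.3 and 123 in Th1 cells and at 135 and 741 in Th17 cells. It was 5.47-fold higher with CD30 in Th17 cells, and the CD30high Th17 array alone stood above 300. None of the 6 macrophage and monocyte markers reached 300 on that array: Csf1r, Adgre1 and Cd14 were at 130.1, 158 and 104 and highest there, Fcgr1 was at 97.7, and Lyz2 at 88.5 and Itgam at 40.7 were lower than on another array. Their part in the Slc15a3 value was not tested. Slc35d3, a member of the nucleotide sugar carrier family with a known role in platelet dense granules, was at 41.9 and 78.4 in Th1 cells and 102 and 478 in Th17 cells, 4.70-fold higher with CD30 in the latter. Both Th1 signals of Slc35d3 were under 100 and were set to 100, so its Th1 ratio was fixed at 1 and says nothing of CD30.

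Slc4a11, which conducts protons or hydroxide across the plasma membrane, was at 138 and 281 in Th1 cells and 199 and 719.9 in Th17 cells. Its ratio with CD30 was 2.04-fold in Th1 cells, where both signals were under 300, and 3.61-fold in Th17 cells. The CD30high array was the brighter in both lineages. A second probe set for Slc4a11 was dim on every array (118, 65.5, 46.01 and 72.3) and did not show the difference. Slc15a3, Slc35d3 and Slc4a11 entered the set through the CD30high Th17 array alone, so for these 3 a higher value there was built into the choice.

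The other three had a clear signal elsewhere too. Slc41a2, a magnesium carrier, was at 390.4 and 565 in Th1 cells and 132 and 337 in Th17 cells. The CD30low Th17 array was the low one, and the ratio with CD30 was 2.55-fold in Th17 cells and 1.45-fold in Th1 cells. Slc35d1, which brings UDP-glucuronic acid and UDP-N-acetylgalactosamine into the endoplasmic reticulum, was at 660.0 and 897 in Th1 cells and 627 and 1529 in Th17 cells. It was 2.44-fold higher in CD30high Th17 cells, and its second probe set gave 258, 247, 224 and 380 on the 4 arrays, with CD30high Th17 cells again the highest.

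Slc66a2, a protein of the PQ-loop family, gave 680.0 and 754 in Th1 cells and 304 and 611 in Th17 cells. Its ratio with CD30 in Th17 cells, 2.01-fold, sat at the edge of the rule, and a second probe set gave 2.19-fold (156 and 340.4). CD30low Th17 cells were below the other 3 arrays on both probe sets. With the mean of all probe sets of a gene in place of the brightest, Slc4a11 at 0.93 and Slc66a2 at 0.53 on the log2 scale no longer passed.

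**Figure D1:**
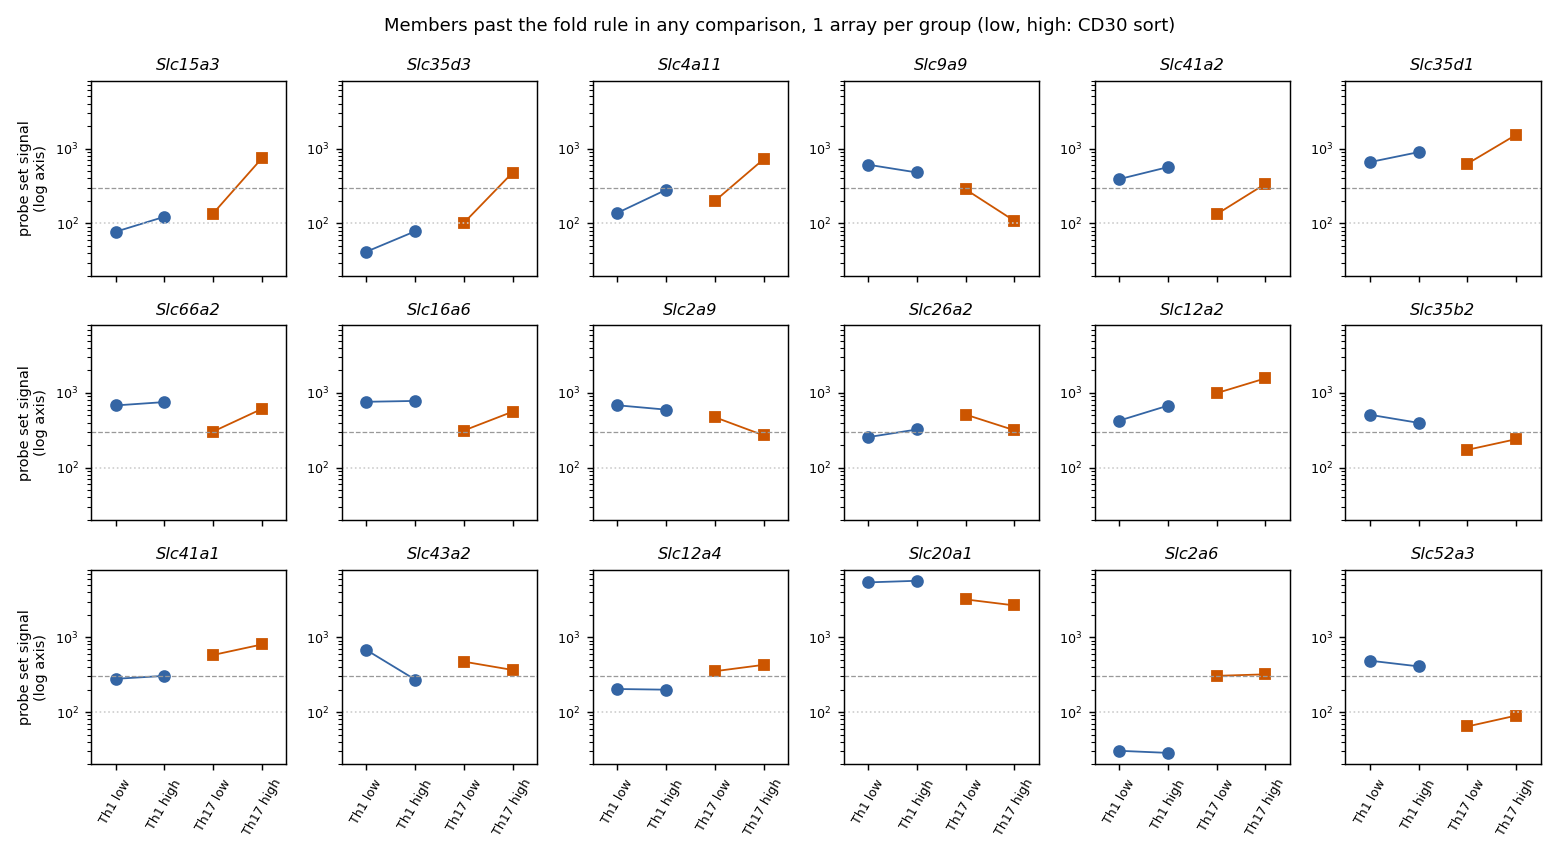
Signals of the 18 genes past the fold rule in any of the 4 comparisons, 1 panel a gene with 1 array per point on a log axis. Blue circles are Th1 cells, orange squares Th17 cells, and lines join CD30low to CD30high. The dashed line marks a signal of 300 and the dotted line 100. Slc15a3, Slc35d3 and Slc4a11 cross 300 in CD30high Th17 cells alone, and Slc2a6 and Slc52a3 split by lineage.

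Slc43a2 was the single carrier past the rule in Th1 cells. It encodes LAT4, a facilitative carrier of large neutral amino acids such as leucine and phenylalanine. It was at 675 and 271 in Th1 cells, 2.49-fold lower with CD30, and at 471 and 365 in Th17 cells, where the ratio was 1.29-fold in the same direction. CD30low Th1 cells were the highest of the 4 arrays. A second probe set of the gene was dim, at 124, 92.9, 143 and 156, and the mean of the probe sets gave a log2 ratio of -0.54, under the rule. Slc35c1, the GDP-fucose carrier of the Golgi, chosen after its values were seen, came just under the rule at 1.98-fold lower (388 and 196) in Th1 cells and was 1.49-fold lower (341 and 229) in Th17 cells.

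Promoter sequence was taken for the carriers past the rule with CD30, to show the DNA just upstream of genes that were higher in CD30high Th17 cells and of the gene that was lower in Th1 cells. RefSeq (GRCm38.p6) gave a promoter for 59 of the 79 genes, and for 4 of the 7 past the rule with CD30 the 250 bases before the start are printed, on the strand of the gene and with capitals marking CCACCC read on the opposite strand. Slc35d3 lies at chr10:19851460-19851709 (minus strand), Slc41a2 at chr10:83337818-83338067 (minus strand), Slc35d1 at chr4:103215177-103215426 (minus strand) and Slc43a2, in its first listed promoter, at chr11:75531444-75531693 (plus strand).
Slc35d3: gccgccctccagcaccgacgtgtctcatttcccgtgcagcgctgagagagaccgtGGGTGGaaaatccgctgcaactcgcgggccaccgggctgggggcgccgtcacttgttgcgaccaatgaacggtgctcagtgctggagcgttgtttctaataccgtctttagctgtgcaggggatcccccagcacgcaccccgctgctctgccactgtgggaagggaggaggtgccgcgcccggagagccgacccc
Slc41a2: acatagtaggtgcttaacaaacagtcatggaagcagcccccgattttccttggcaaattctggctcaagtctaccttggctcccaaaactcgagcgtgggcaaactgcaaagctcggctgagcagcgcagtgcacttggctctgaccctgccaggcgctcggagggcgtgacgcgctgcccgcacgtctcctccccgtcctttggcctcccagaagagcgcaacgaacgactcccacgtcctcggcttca
Slc35d1: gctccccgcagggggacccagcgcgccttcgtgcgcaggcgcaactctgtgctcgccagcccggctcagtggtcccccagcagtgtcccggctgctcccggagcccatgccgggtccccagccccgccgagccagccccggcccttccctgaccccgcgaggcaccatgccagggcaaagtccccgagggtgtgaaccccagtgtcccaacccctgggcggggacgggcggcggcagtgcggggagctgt
Slc43a2: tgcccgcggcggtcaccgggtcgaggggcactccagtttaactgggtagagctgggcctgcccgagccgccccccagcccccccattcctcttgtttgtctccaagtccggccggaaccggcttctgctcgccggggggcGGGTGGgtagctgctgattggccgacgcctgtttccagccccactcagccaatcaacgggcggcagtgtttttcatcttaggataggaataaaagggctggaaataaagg
Both strands were searched for the AP-1 letters TGANTCA, the E-box letters CACGTG and the KLF letters CCACCC. The KLF letters stood 195 bases before the start of Slc35d3 and 110 bases before that of Slc43a2, and none of the 3 motifs was found in the windows of Slc41a2 and Slc35d1 or in a second listed promoter of Slc43a2, which held 32 CpG sites. Of 32536 promoters in the table, 28.1% held the KLF letters, 6.73% the AP-1 letters and 6.04% the E-box letters. The printed windows of Slc35d3, Slc35d1, Slc41a2 and Slc43a2 contained 22, 22, 18 and 17 CpG sites, beside a median of 6 over all promoters.

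**Figure D2:**
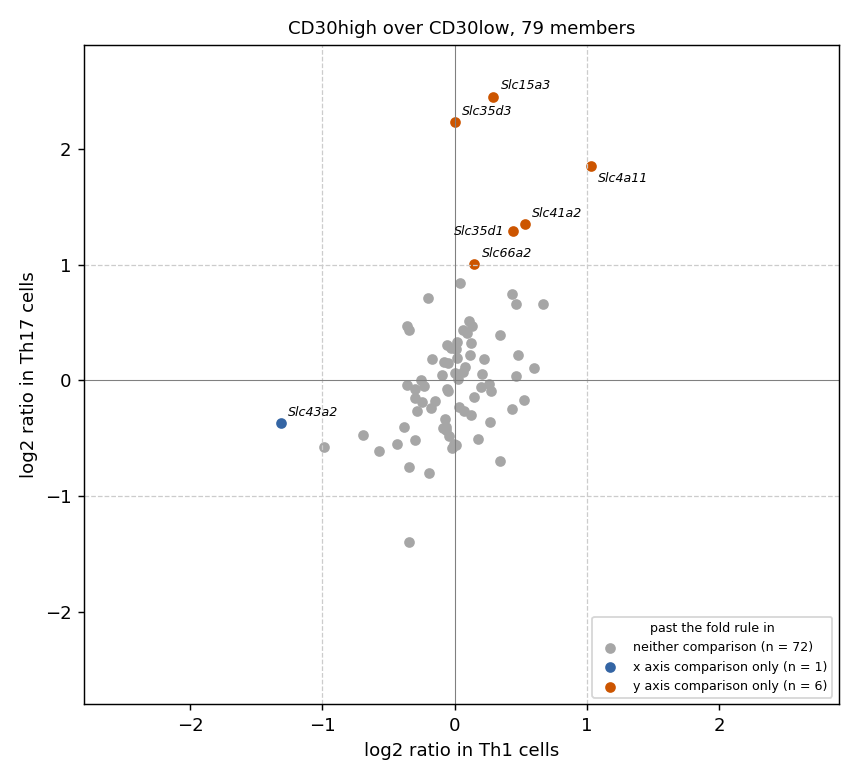
Log2 ratio of CD30high over CD30low cells for each of the 79 genes, Th1 cells on the x axis and Th17 cells on the y axis, 1 point a gene. Dashed lines mark 2-fold. The 6 orange points lie above the upper line and no other gene passes the rule in Th17 cells, and Slc43a2 alone passes in Th1 cells. Slc4a11 lies beyond 2-fold on the x axis with a signal under 300, and the lowest grey point on the y axis is Slc9a9, also under 300.

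To examine whether one kind of cargo moved as a group, the genes were sorted into 13 classes by what their family is known to carry. A class is thus named for its families, and single members can carry something else, such as the urate carrier Slc2a9 in the sugar class. The carriers of nucleotide sugars and the secretory pathway formed the largest class, with 18 genes. Their median log2 ratio with CD30 was -0.09 in Th1 cells, with 5 above 0 and 12 below, and 0.04 in Th17 cells, with 10 above and 8 below. Over all 8227 genes, 3820 were above 0 and 4351 below in Th1 cells, and 4158 above and 4028 below in Th17 cells. Of the 18, Slc35d1 and Slc35d3 passed the rule in Th17 cells. Slc35b1, which exchanges ATP for ADP across the endoplasmic reticulum, was at 1932, 1569, 2315 and 2202 in the Th1 pair and then the Th17 pair, and the UDP-N-acetylglucosamine carrier Slc35a3 was at 1786, 1936, 1929.6 and 2242. Their largest ratio with CD30 was 1.23-fold. Slc35d2, another carrier of UDP-N-acetylglucosamine, named after its values were seen, was lower with CD30 in both lineages, 1.49-fold in Th1 cells (888 and 598) and 1.53-fold in Th17 cells (863 and 564).

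Amino acid and peptide carriers numbered 12, with a median log2 ratio of -0.05 in Th1 cells and -0.04 in Th17 cells, and Slc43a2 and Slc15a3 were the members past the rule. Slc38a1, which takes up glutamine with sodium, stayed between 2757 and 3532 on the 4 arrays and differed by 1.11-fold with CD30 in either lineage, higher in Th1 and lower in Th17 cells. Slc38a10 lay between 2657 and 3288. Slc38a9, the lysosomal carrier that senses arginine for mTORC1 and that was named after its values were seen, was at 725 and 610.2 in Th1 cells and 372 and 326 in Th17 cells. Its CD30low and CD30high signals were close, and both Th17 arrays were below both Th1 arrays.

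Metals and heme were carried by 7 genes, 6 of which were above 0 with CD30 in Th1 cells and 4 in Th17 cells, with medians of 0.12 and 0.11. Slc41a1, a plasma membrane carrier of magnesium, was at 278 and 304 in Th1 cells and 579 and 800.1 in Th17 cells. The copper importer Slc31a1 was at 598, 600.0, 549 and 664, and its second probe set at 365, 336, 406 and 268. With CD30 in Th17 cells these gave log2 ratios of 0.27 and -0.60, in opposite directions. Slc48a1, which moves heme out of lysosomes, gave 759.9, 873, 560.2 and 538. The iron importer Slc11a2 was dim, between 185 and 322. Slc49a4, a lysosomal membrane carrier named after its values were seen, was at 451 and 278 in Th1 cells. In Th17 cells it was at 233 and 167, so it was lower with CD30 in each lineage. It reached the signal limit on the CD30low Th1 array alone, so lower values on the other arrays were built into the choice. Slc11a2 and Slc31a2 reached the limit on the CD30high Th1 array alone. For them a ratio above 0 with CD30 in Th1 cells was built in likewise.

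The class of sugars and sugar phosphates held 8 genes with medians of 0.01 in Th1 and 0.09 in Th17 cells, none past the rule. Slc37a4, which brings glucose 6-phosphate into the endoplasmic reticulum, was at 814 and 1031 in Th1 cells and 863 and 1132 in Th17 cells, 1.27-fold and 1.31-fold higher with CD30. Slc50a1, a sugar carrier of the SWEET family, was at 2094, 1855, 1302 and 1480.5. The urate carrier Slc2a9 was lower with CD30 in Th17 cells, 474 against 271, a 1.75-fold ratio under the rule.

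The 8 carriers of vitamins, choline and organic ions had medians of -0.00096 and -0.08. Slc19a2, a thiamine carrier, was at 969.6 and 1339.8 in Th1 cells and 1031 and 1626 in Th17 cells, so that it was 1.38-fold and 1.58-fold higher in CD30high cells. A second probe set (605, 881, 595 and 856) gave 1.46-fold and 1.44-fold. Slc44a2, a choline carrier-like protein, was at 9796 and 9353 in Th1 cells and 7449.5 and 5638 in Th17 cells, lowest in CD30high Th17 cells.

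The class of cation-coupled chloride carriers held 3 genes, 1 importer and 2 exporters. Slc12a2 encodes NKCC1, which brings sodium, potassium and chloride into the cell. It was at 425 and 675 in Th1 cells and 992 and 1563 in Th17 cells, higher with CD30 by 1.59-fold and 1.58-fold, and each Th17 array was above each Th1 array. Its other probe sets (249, 403, 531 and 612, and 151, 164, 278 and 436) were ordered the same way across the 4 arrays. The potassium and chloride exporters Slc12a4 and Slc12a7 differed by 1.22-fold or less with CD30. Slc12a4 was at 203, 199, 351 and 427, and Slc12a7 at 927, 818, 802 and 677.

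Phosphate, sulfate and other anions were carried by 4 genes, all of them below 0 with CD30 in Th17 cells at a median log2 ratio of -0.51, and evenly split in Th1 cells. Over all 8227 genes, 4028 were below 0 in Th17 cells. None passed the rule. The phosphate importer Slc20a1 was at 5409 and 5682 in Th1 cells and 3203 and 2663 in Th17 cells. Slc17a9, which loads ATP into vesicles, was at 618, 588, 611 and 485, and the lysosomal sialic acid exporter Slc17a5 at 388, 306, 315 and 187. All 3 were lowest in CD30high Th17 cells. The fourth, the sulfate carrier Slc26a2, was at 256 and 324 in Th1 cells and 513 and 317 in Th17 cells. Its log2 ratio in Th17 cells was -0.69, and -0.06 on a second probe set (352 and 336).

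Among 5 carriers of protons, sodium, calcium and bicarbonate, 4 were above 0 with CD30 in Th1 cells and 1, Slc4a11, in Th17 cells. Over all 8227 genes, 3820 were above 0 in Th1 cells and 4158 in Th17 cells, where 4028 were below. Slc8b1 reached 300 on the CD30high Th1 array alone and Slc4a11 on the CD30high Th17 array alone. A ratio above 0 was thus built into the choice for Slc8b1 in Th1 cells and for Slc4a11 in Th17 cells. Slc9a9, a sodium and proton exchanger of endosomes, was at 609 and 479 in Th1 cells and 285 and 108 in Th17 cells. The Th17 pair differed by 2.63-fold, but its brighter signal was under 300, so it was not counted. Slc9a8, the exchanger of the Golgi, was between 327 and 471. Of 3 nucleoside carriers, 2 were lower with CD30 in Th17 cells and level in Th1 cells: the equilibrative carrier Slc29a1 was at 489.6, 492, 601 and 407, and its lysosomal relative Slc29a3 at 509, 506, 597 and 408. For both, CD30high Th17 cells were the lowest array.

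The remaining classes were small. Of 4 lipid and acetyl-CoA carriers, 3 were above 0 with CD30 in Th17 cells, at a median of 0.29, and Slc33a1, which brings acetyl-CoA into the endoplasmic reticulum, was at 1333, 1392, 1003 and 1353. Slc10a7 was between 821 and 1001. In the monocarboxylate class Slc16a6 was at 761 and 781 in Th1 cells and 314 and 561 in Th17 cells, 1.79-fold higher with CD30 in the latter, and Slc16a4 at 260.0, 294, 338 and 238. The last 4 genes carried an Slc symbol without being carriers: the scaffold protein Slc9a3r1 (5794, 5700.3, 8045 and 5362), Slc4a1ap (538, 548, 599 and 602), Slc7a6os and the pseudogene Slc2a4rg-ps. None of these 4 passed the rule in any comparison, and leaving them out changed no count of calls.

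**Figure D3:**
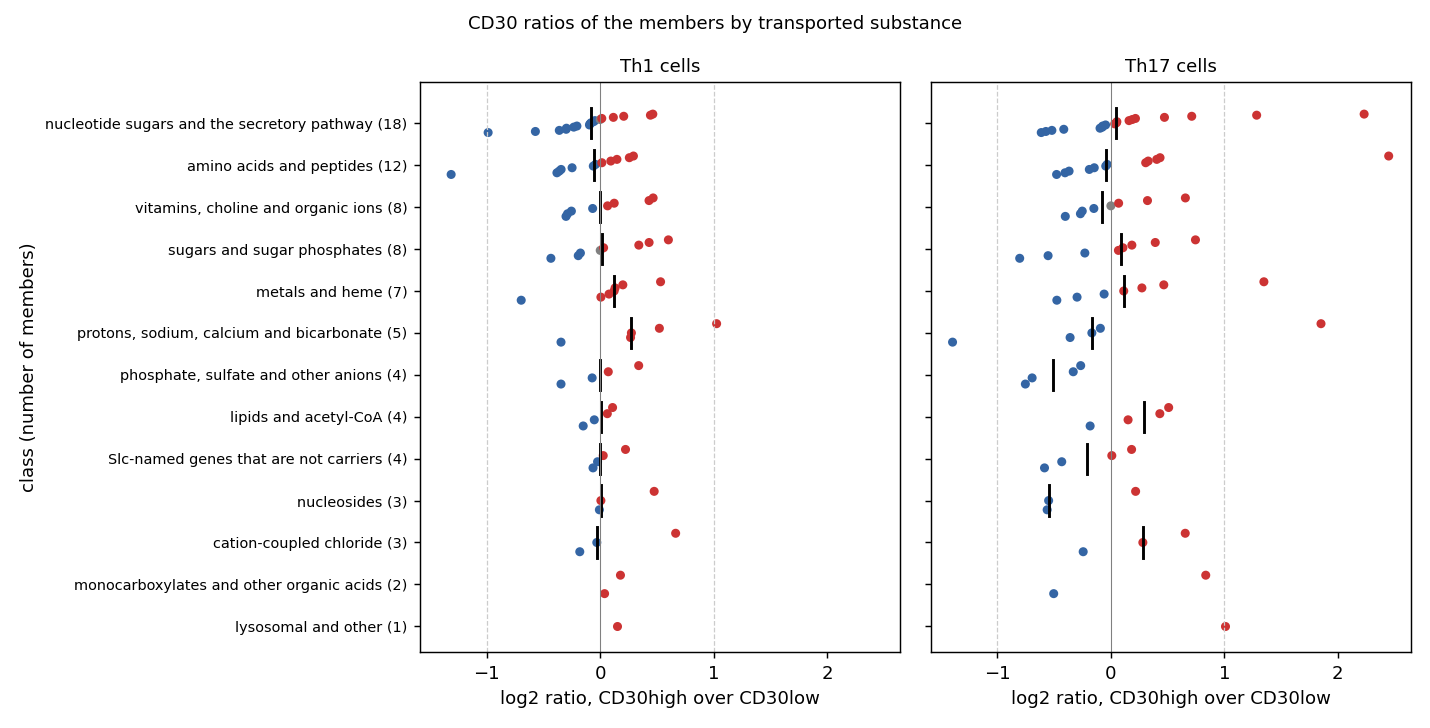
Log2 ratios of CD30high over CD30low cells for the 79 genes in 13 classes, Th1 cells on the left and Th17 cells on the right. Each point is a gene, red above 0, blue below 0 and grey at 0. Black bars are medians of classes with 3 or more genes, and dashed lines mark 2-fold. The 4 anion carriers all lie below 0 in Th17 cells, where 4028 of all 8227 genes do. No class has every gene above 0 there except that of Slc66a2, which holds 1 gene.

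The Th1 and Th17 comparisons with CD30 share no array, so their values can be set beside each other. Slc12a2 and Slc4a11 were at least 1.5-fold higher with CD30 in both lineages, 2 of 79 genes beside 1.93% of all 8227 genes, and no gene of the set was that much lower in both, beside 1.59% of all. Slc26a2, Slc35b2 and Slc7a6 differed with CD30 by at least 25% in opposite directions in the lineages, 3 of 79 genes beside 3.33% of all. Where a second probe set of mean signal 300 or more existed, in 20 of the 79 genes, and a gene differed by at least 25%, the second probe set had the same direction for 5 of 5 genes in Th1 cells and 9 of 9 in Th17 cells, and between lineages for 10 of 11 among CD30low and 7 of 8 among CD30high cells. Over all genes with such pairs it was 528 of 661 and 913 of 989 with CD30. The spread between probe sets of one gene (SD of the log2 ratio) was 0.13 in Th1 and 0.27 in Th17 cells for the 20 genes, and 0.23 and 0.20 over 2928 genes. This spread comes from the same RNA and is no replicate error.

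To compare the lineages, Th17 cells were set against Th1 cells within the same CD30 sort. Among CD30low cells 4 of 79 genes were higher and 6 lower in Th17 cells, beside 3.37% and 5.57% of all genes. Among CD30high cells 7 were higher and 4 lower, beside 4.83% and 6.65%. The median log2 ratios were -0.06 and -0.09. Centring each array on its median gave 2 higher and 9 lower among CD30low cells, while the counts over all genes went from 277 higher and 458 lower to 244 and 504. These comparisons reuse the arrays of the CD30 comparisons, and cytokines, antibodies and sex-linked transcripts differed between the lineages as well. Of the 79 genes Slc10a3 and Slc35a2 are X-linked, and neither passed the rule.

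In both sorts 3 genes were higher and 2 lower in Th17 cells, beside 1.57% and 3.45% of all 8227 genes. Slc2a6, a glucose carrier family member found in lysosomes, was at 30.4 and 28.4 in Th1 cells and at 305 and 319 in Th17 cells, at least 3.05-fold and at least 3.19-fold higher. Slc52a3, a riboflavin carrier, had the opposite pattern, 486 and 408 in Th1 cells against 64.2 and 89.7 in Th17 cells, at least 4.86-fold and at least 4.08-fold lower. Slc2a6 and Slc12a4 reached 300 in Th17 cells alone and Slc52a3, Slc9a9 and Slc35b2 in Th1 cells alone, so for these 5 a lineage difference was built into the choice, as it was for Slc15a3, Slc35d3 and Slc4a11 among CD30high cells. Slc12a2 was 2.33-fold and 2.32-fold higher in Th17 cells, and its second probe set 2.13-fold and 1.52-fold. Slc41a1 was 2.08-fold and 2.63-fold higher. Slc9a9 was 2.14-fold lower in CD30low and 4.43-fold lower in CD30high Th17 cells. With the mean of all probe sets, Slc41a1 (0.53 and 0.70 on the log2 scale) and Slc9a9 (-0.30 and -0.54) no longer passed in either sort. The other probe sets of Slc41a1 and Slc9a9 were under 108 on every array.

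In CD30low cells alone the sulfate carrier Slc26a2 was 2.00-fold higher in Th17 cells. Slc41a2 (2.95-fold), Slc35b2 (2.94-fold), Slc16a6 (2.42-fold) and Slc66a2 (2.24-fold) were lower there. Slc35b2, which delivers the sulfate donor PAPS to the Golgi, was at 511 and 398 in Th1 cells and 174 and 241 in Th17 cells, and its dim second probe set was 1.19-fold higher instead (112 and 133). In CD30high cells alone Slc15a3 (6.04-fold), Slc35d3 (at least 4.78-fold), Slc4a11 (2.56-fold) and Slc12a4 (2.15-fold) were higher in Th17 cells, and Slc2a9 (2.20-fold) and Slc20a1 (2.13-fold) were lower. A second probe set of Slc20a1 gave 739, 788, 441 and 296, ordered by lineage like the first. With the mean of all probe sets Slc26a2, Slc35b2 and Slc66a2 no longer passed among CD30low cells, nor Slc4a11, Slc2a9 and Slc20a1 among CD30high cells. Whether the CD30low and CD30high lineage ratios of these genes differ was not tested.

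**Figure D4:**
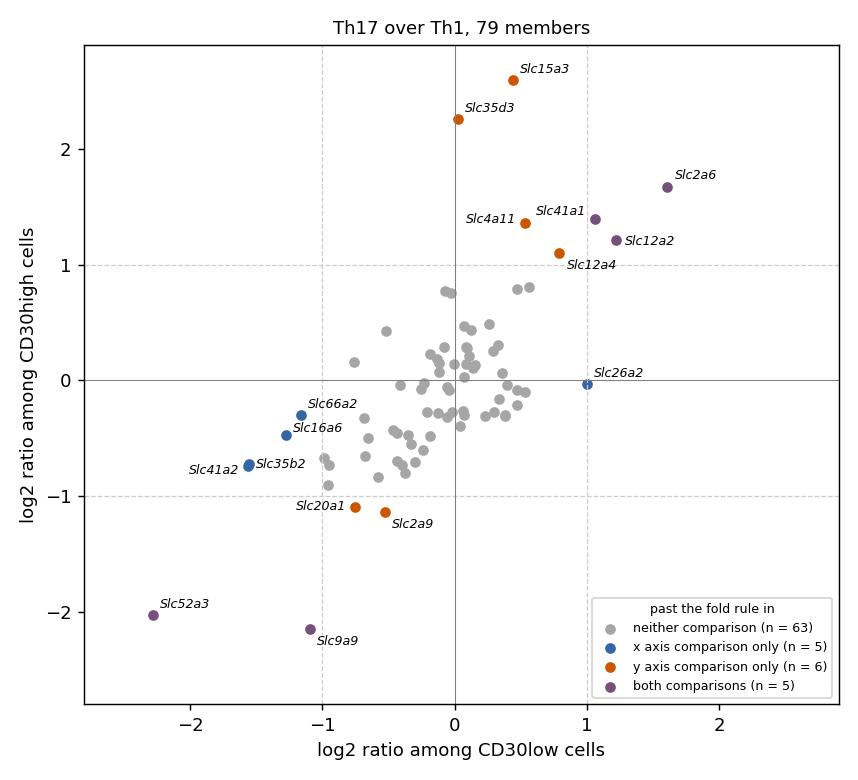
Log2 ratio of Th17 over Th1 cells for each of the 79 genes, CD30low cells on the x axis and CD30high cells on the y axis, 1 point a gene and dashed lines at 2-fold. The 5 purple points pass the rule in both sorts, with Slc2a6, Slc12a2 and Slc41a1 at the upper right and Slc52a3 and Slc9a9 at the lower left. Ratios of Slc2a6 and Slc52a3 on both axes, of Slc35d3 on the y axis and of Slc15a3 on the x axis rest on signals set to 100 and are lower bounds, and the x value of Slc35d3 sets one such signal against 102.

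The well-studied nutrient carriers that the choice set aside are given for their values. Of 11, 8 reached 300 on some array, and none passed the rule in any of the 4 comparisons, where 0.462% to 6.65% of all genes did in each direction, so 0 of 8 is no result about them. Slc7a5, the large neutral amino acid carrier LAT1, was at 1137 and 1600.3 in Th1 cells and 1064 and 1933 in Th17 cells, higher with CD30 by 0.49 and 0.86 on the log2 scale. Its partner chain Slc3a2 was at 1596, 1729.8, 1038 and 941, the glucose carrier Slc2a1 at 7354, 7673, 10803 and 10979.7, and the glutamine carrier Slc38a2 at 5223, 4875, 3883 and 2738. Slc16a3, Slc7a11 and Slc1a4 stayed under 300.

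Proteins that escort, gate or energise carriers were followed in a list of 20, of which 18 were named. With CD30, none passed the rule in Th1 cells, where 0.754% of all genes were higher and 0.462% lower, so this is no result about them. Of the 16 at the signal limit 3 were lower and none higher in Th17 cells, beside 3.46% and 3.73% of all genes. Sgk1, a kinase that raises the surface level of several carriers, was at 7751 and 7032 in Th1 cells and 5157 and 1249 in Th17 cells, 4.13-fold lower with CD30 in the latter. Stk39, the kinase SPAK that activates NKCC1, was at 1052 and 1162 in Th1 cells and 1492 and 540.4 in Th17 cells. Nedd4l, a ubiquitin ligase that Sgk1 phosphorylates, was at 278, 181, 359 and 134. CD30high Th17 cells were the lowest array for all 3. Between lineages Fxyd5, a regulator of the sodium pump, was lower in Th17 cells of either sort (32111, 28374, 15802 and 11577). Among CD30high cells the pump subunit Atp1b3 (15548 and 7771), Stk39 and Sgk1 were lower as well, and Rraga (1402 and 3218), a GTPase of amino acid sensing, was higher.

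The signal limit decided which genes were described. Just inside it lay Slc31a2, Slc27a4, Slc2a6, Slc11a2 and Slc8b1, with highest signals of 307, 313, 319, 322 and 334. Just outside lay Slc37a1, Slc66a1, Slc16a10, Slc37a2 and Slc14a1, with 293, 267, 258, 222 and 216. Of the 79 genes 50 reached 300 on all 4 arrays, 29 were under it on some array and 4 were under 100 on some array. The counts at or above 300 on single arrays were 64 and 68 in Th1 cells and 61 and 62 in Th17 cells.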

How the data were processed

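Total RNA was labelled with a 3' in vitro transcription kit and hybridized to Affymetrix whole-genome mouse arrays, 1 for each of 4 samples grouped by title. The deposited intensity values were linear probe set signals, made by the authors with the GeneChip Operating Software according to the methods, or with Affymetrix Expression Console according to the submitters' notes on processing. Algorithm, version and scaling target were not given in the sources used here. Such scaling hides a change common to most genes. Precision is limited by the single array per group.

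Of 45037 probe sets, 34945 had 1 symbol in GEO's platform annotation, 932 several and 9160 none, and 34741 were matched to RefSeq (GRCm38.p6) symbols. Each gene was read from its brightest probe set by mean signal. Signals under 100 were set to 100 before log2 ratios, and ratios formed with such a value are written as at least that fold. Calls needed a 2-fold ratio and a brighter signal of 300. Counts were set beside those over all genes at that signal. The ratio code was tested on simulated data. Python 3.11.15, numpy 2.4.6, pandas 2.3.3 and matplotlib 3.10.9 were used.

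Genes and lists were chosen with earlier results of these data known. Named were all genes past the rule, the 2 brightest of each class, those nearest the signal limit, the nutrient carriers set aside and partners past the rule. Classes followed carrier families, except that 4 genes that are not carriers were given a class of their own after the data were seen. Alternatives were a floor of 50, a limit of 500, a 1.5-fold rule, the mean of probe sets, quantile normalization, median centring, unchanged platform symbols and leaving out the 4 genes.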

Additional observations from a re-analysis of the deposited data

Results flagged for a closer look

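With CD30, 3 carriers differed by at least 25% in opposite directions in the 2 lineages, 3 of 79 beside 3.33% of all genes. For the sulfate carrier Slc26a2 the log2 ratio of CD30high over CD30low cells was 0.34 in Th1 cells and -0.69 in Th17 cells, a difference of -1.03. For the PAPS carrier Slc35b2 it was -0.36 and 0.47, a difference of 0.83. For Slc7a6, a carrier that exchanges cationic for neutral amino acids, it was -0.35 and 0.43, a difference of 0.78, with signals of 1228 and 967 in Th1 cells and 1204 and 1626 in Th17 cells. These differences were not tested, since each rests on 1 array per group.

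Second probe sets were ordered the same way in part. That of Slc26a2 gave 252.9 and 299.97 in Th1 cells and 352 and 336 in Th17 cells. That of Slc7a6 gave 905 and 835 in Th1 cells and 917 and 1015 in Th17 cells. The dim second probe set of Slc35b2, at 112, 157, 133 and 197, was higher with CD30 in both lineages.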

How the results depend on the processing

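No array could be left out and no replicates could be paired because each group had 1 array. A fit of CD30 with lineage as a block, which would take the lineages as replicates of each other, was not run. With a signal limit of 500 in place of 300, 4 genes were higher and 2 lower in Th17 than Th1 cells among CD30high cells. The counts over all genes there were 320 and 414, in place of 397 and 547. Slc35d3 and Slc41a2 no longer passed with CD30 in Th17 cells (231 higher over all genes, in place of 307). Among CD30low cells Slc2a6, Slc41a2 and Slc52a3 no longer passed between lineages (214 higher and 353 lower over all genes, in place of 277 and 458). With a 1.5-fold rule 2 were higher and 3 lower with CD30 in Th1 cells (316 and 279 of all 8227 genes), 10 higher and 5 lower with CD30 in Th17 cells (741 and 710), 13 lower in Th17 than Th1 cells among CD30low cells (1043), and 11 higher and 15 lower among CD30high cells (1084 and 1185). With the mean of all probe sets no gene was lower with CD30 in Th1 cells, beside 20 of all genes in place of 38. Between lineages 2 were higher and 3 lower in CD30low cells, beside 179 and 322 of all genes in place of 277 and 458. In CD30high cells 1 was lower, beside 386 of all genes in place of 547. Quantile normalization gave 2 lower with CD30 in Th1 cells, Slc35c1 among them, beside 51 of all genes in place of 38. Median centring gave 2 higher between lineages in CD30low cells, without Slc26a2 at 0.95 and without Slc2a6 at 1.58, whose brighter signal fell under the limit. Of 760 ratios of named genes recomputed under 5 settings, 15 no longer passed the rule, 13 of these with the mean of probe sets. Another 27 moved, 22 of them with the mean of probe sets and 5 with the floor of 50. Reversal of direction was counted only among ratios that had passed the rule, where it was 0. Changes of sign among the other ratios were not counted. At the floor of 50 the log2 ratio of Slc35d3 between lineages in CD30low cells became 1.02. That of Slc15a3 became 0.81 there and 0.67 with CD30 in Th1 cells, and that of Slc52a3 with CD30 in Th17 cells became 0.48. Slc35d3 was then higher with CD30 in Th1 cells too, at 78.4 against a signal set to 50. The floor of 50 and unchanged platform symbols changed no count of calls, and no median moved by more than the reported spread between probe sets. Dim probe sets and the single array per group limit every value, and no error could be given.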

Other observations

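A probe set annotated to both Slc28a2 and Slc28a2b, concentrative carriers of purine nucleosides, could not be assigned to 1 gene and so was not among the 79. It read 2496 and 1838 in the Th1 pair and 1843 and 559 in the Th17 pair, the CD30low array first. It was 3.30-fold lower with CD30 in Th17 cells and 1.36-fold lower in Th1 cells, and CD30high Th17 cells were the lowest array. The other 5 Slc probe sets with several symbols were under 100 on every array.

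The carrier families set aside by the choice of genes are given by their counts. Over all genes, 3.73% were higher and 3.46% lower with CD30 in Th17 cells, and 0.754% and 0.462% in Th1 cells. At such shares a count of none in families of this size is no result about them. None of 26 mitochondrial carriers of the Slc25 family passed the fold rule with CD30 in either lineage. Of 8 zinc importers of the Slc39 family, 3 were higher and 0 lower with CD30 in Th17 cells, and of 6 carriers of the Slc30 family, which move zinc out of the cytosol, 0 were higher and 1 lower. In Th1 cells no gene of either family passed the rule.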
